A study of Mus musculus with 6 samples.

Results

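Dorsal skin of 52-week-old mice was compared between 2 single-cell RNA libraries, 1 from untreated skin and 1 from skin exposed ex vivo to PBMC-sec, which is what mononuclear blood cells secrete after γ-irradiation. The comparison covers every barcode of both libraries with 500 or more unique molecular identifiers (UMIs), 300 or more genes and no more than 10% of UMIs from mitochondrial genes. These were 3686 untreated and 4949 treated cells, together 8635 of the 34834 cells that the same limits keep in the whole series. The series is titled for age-related changes of mouse skin macrophages and also holds such a pair at 8 weeks (14696 cells) and at 26 weeks (11503 cells). All animals were male, wildtype C57BL/6 mice with no transgene and no deletion, and each of the 6 libraries pooled 3 animals before sequencing. Untreated skin was dissociated directly, whereas treated skin was first held outside the body, so the effect of PBMC-sec and that of ex vivo holding cannot be told apart. The labels give no dose and no length of treatment, and do not say whether treated and untreated libraries shared animals.

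Skin is built from an epidermis of keratinocytes over a dermis in which fibroblasts secrete collagen and other matrix proteins, with vessels, nerves and resident immune cells between them. Keratinocytes divide in the basal layer and cornify on the way up, and they switch on wound keratins and small proline-rich proteins when the barrier is damaged. Macrophages and Langerhans cells live in skin at rest, while neutrophils enter from the blood after injury and carry S100a8 and S100a9. Secretory cells such as fibroblasts fold their products in the endoplasmic reticulum with chaperones such as Hspa5 (BiP) and Hsp90b1 (GRP94), whose genes the unfolded protein response induces. Oxidants and electrophiles release the factor NRF2, which induces antioxidant genes such as Nqo1 and Gclc through antioxidant response elements.

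Each condition had 1 library, so differences at 52 weeks have no replicate check and no test. Intervals are exact 95% intervals that cover counting error only. Levels are UMIs per 1000000 UMIs of the same lineage and library (CPM), and log2 ratios compare treated with untreated CPM after adding 10 CPM to both, which understates differences of scarce genes. A gene counted as measured with at least 20 UMIs and at least 50 CPM in 1 of the 52-week libraries. The tests given used summed counts of all 3 ages. One fit asked for a treatment difference over the 3 age pairs, and another asked whether the 52-week difference departed from that of the younger pairs. The spread in both was that between ages, with 2 and 1 residual degrees of freedom.

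The deposited 52-week matrices held 20220672 untreated and 40211991 treated UMIs, and the median kept cell had 3064 and 4804 UMIs. Other libraries had medians of 1128 to 3493.5 UMIs. The 52-week libraries shared 21 barcodes. Cells were put into lineages by summed marker UMIs, with limits set after the data had been seen, and 194 untreated and 80 treated cells lay near a limit. Keratinocyte transcripts in other cells, a measure of free RNA, were higher in the untreated library: the median macrophage had 31.2 keratinocyte-marker UMIs per 10000 untreated and 5.75 treated, and the median fibroblast had 16.7 and 2.92. Their part in the differences below was not tested. Genes with a CPM in all other cells over 5 times that in the lineage were not named by the naming rule.

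Neutrophils, macrophages and fibroblasts each formed a smaller share of the treated 52-week library than of the untreated one, and neutrophils differed most among these 3. Neutrophils were 70 of 3686 untreated cells (1.90%, interval 1.48 to 2.39) and 15 of 4949 treated cells (0.303%, 0.170 to 0.499). The untreated share was 6.27 times the treated share, a log2 ratio of −2.65 (−3.56 to −1.83). The 4 younger libraries held 2 or 3 neutrophils each, so neutrophils were scarce in skin of either treatment at 8 and 26 weeks. Macrophages were 300 untreated cells (8.14%, 7.28 to 9.07) and 263 treated cells (5.31%, 4.71 to 5.98), a log2 ratio of −0.61 (−0.86 to −0.37). In the younger libraries 72 to 91 macrophages made up 0.985% to 1.61% of cells, and both 52-week libraries lay above that range. The macrophage ratio was 0.71 at 8 weeks and −0.24 at 26 weeks, so its sign was not shared by all ages. Fibroblasts were 846 untreated cells (22.95%) and 790 treated cells (15.96%), a log2 ratio of −0.52 (−0.67 to −0.38). At 8 weeks the fibroblast ratio was 1.32, in the opposite direction, and at 26 weeks it was −0.53. The levels depended on how cells were assigned: with lineages from clusters neutrophils were 3.93% untreated and 0.606% treated and macrophages 12.3% and 7.48%, and with cells thinned to 500 UMIs neutrophils were 0.76% and 0.0808% and macrophages 3.64% and 2.77%.

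Other lineages were larger shares of the treated library. T or innate lymphoid cells were 42 untreated cells (1.14%) and 86 treated cells (1.74%), a log2 ratio of 0.61 (0.06 to 1.18), but the ratio was −0.08 when every cell was thinned to 500 UMIs. Without thinning the ratio was 0.62 at 8 weeks and −0.21 at 26 weeks. Dendritic or Langerhans cells were 19 untreated (0.515%) and 45 treated cells (0.909%), a log2 ratio of 0.82 (0.02 to 1.68). Their ratio had the opposite sign at both younger ages, at −0.16 at 8 weeks and −0.36 at 26 weeks. Vascular endothelial cells were 39 untreated (1.06%) and 75 treated cells (1.52%), with an interval that included no difference (0.52, −0.06 to 1.12). Pericytes or smooth muscle cells were 20 untreated (0.543%) and 47 treated cells (0.95%), and their log2 ratio of 0.81 at 52 weeks lay beside 2.55 at 8 weeks and 0.68 at 26 weeks. Keratinocytes were the largest lineage on both sides, with 2039 untreated (55.3%) and 2881 treated cells (58.2%). Immune cells together were 11.7% (10.7 to 12.8) of the untreated and 8.41% (7.65 to 9.21) of the treated library, above the 3.67% to 7.04% of the younger libraries. Among immune cells neutrophils were 16.2% untreated and 3.61% treated, macrophages 69.4% and 63.2%, and T or innate lymphoid cells 9.72% and 20.7%. Cells that reached no lineage limit were 278 untreated (7.54%) and 684 treated cells (13.8%), and they count in the total of each share of all cells. Of these, 20 untreated and 59 treated cells lay in 1 macrophage cluster and 49 and 49 in another. The neutrophil cluster held 21 and 12 of them, and the T or innate lymphoid cluster 0 and 45. Cells of the keratinocyte lineage lay in such clusters too: 86 untreated and 10 treated in the latter macrophage cluster, and 47 and 2 in the neutrophil cluster. Their part in the shares was not tested on its own. Shares are relative, and fewer cells of a type cannot be told apart from more cells of the others or from unequal release during dissociation.

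**Figure D1:**
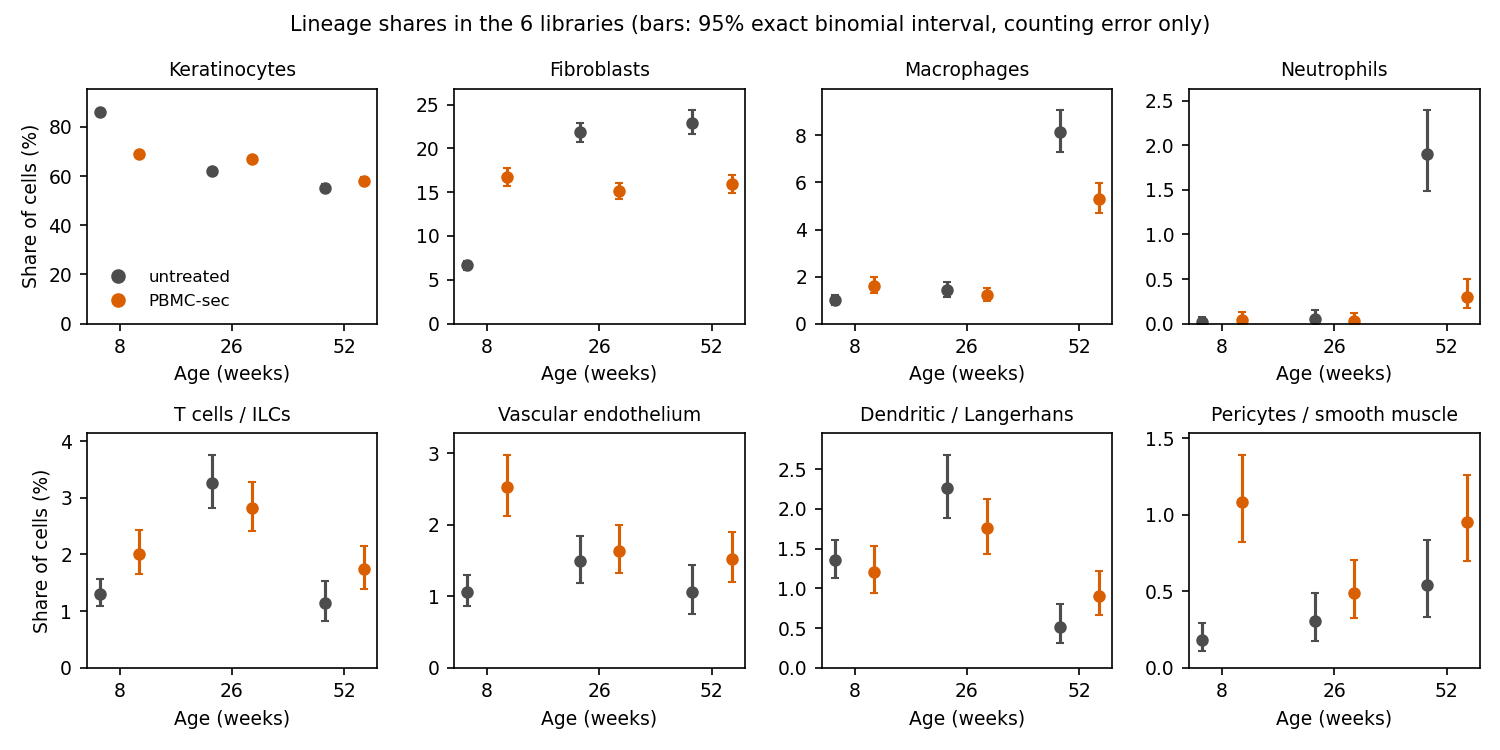
Share of cells (%, axes from 0) of 8 lineages against age in weeks in untreated and PBMC-sec-treated skin, with exact 95% binomial intervals that cover counting error only. At 52 weeks the untreated library held 1.90% neutrophils and the treated one 0.303%, while the younger libraries held 2 or 3 such cells each.

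The 70 untreated neutrophils carried 107558 UMIs and the 15 treated ones 19158, with medians of 1463 and 1245 UMIs per cell. S100a8 and S100a9 are subunits of the antimicrobial protein calprotectin. Keratinocytes make them too, so they were left out of the marker sum. They gave 801 and 778 untreated UMIs and 383 and 325 treated UMIs. S100a8 stood at 7447 CPM untreated and 19992 CPM treated, so the few treated cells carried more of it per UMI. Hdc, which makes histamine, was lower in the treated cells (1832 and 992 CPM), as was G0s2, an inhibitor of lipid breakdown (3282 and 1566 CPM). The chemokine Cxcl2 was the most abundant of the transcripts followed here, at 102596 CPM untreated and 96148 CPM treated. Il1b, an inflammatory cytokine, stood at 8823 and 17173 CPM, and Clec4e, a receptor for microbial glycolipids, at 5578 and 7308 CPM. Receptors of circulating neutrophils were sparse: Csf3r had 27 untreated and 6 treated UMIs, Cxcr2 had 0 and 1, and Ly6g had 0 and 1. Hdc, G0s2, Csf3r, Cxcr2 and Ly6g were part of the marker sum, so their levels are not independent of how neutrophils were chosen. The granule genes Ltf and Camp had 0 UMIs on both sides. The macrophage gene C1qb had 1 untreated UMI and 0 treated ones. Both groups lay in the same cluster of 145 untreated and 30 treated cells, whose leading genes included Cxcl2, Ccl3, Clec4e, Il1rn and S100a8. Keratinocyte Krt14 in these cells was 837 CPM untreated and 261 CPM treated, and the part of free RNA in the neutrophil count was not tested.

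Macrophages of treated 52-week skin carried more class II antigen-presentation transcripts, more Il1b and more of the sodium-pump subunit gene Fxyd2 than untreated ones, and less Ifnb1. Of 2625 measured genes 61 (2.32%) were at least 2-fold higher and 58 (2.21%) at least 2-fold lower at 52 weeks. With trimmed-mean (TMM) scaling in place of plain CPM these counts were 82 and 45. Over all 3 ages edgeR's quasi-likelihood test with Benjamini-Hochberg adjustment called 6 genes higher (0.29%) and 2 lower (0.0965%) of 2072. Those higher included Akr1b3, Fxyd2, H1f0, Akr1b8 and Slpi, and the 2 lower were Cstdc5 and Stfa1, both of the stefin family of protease inhibitors. At 52 weeks both were also over 2-fold lower in fibroblasts, T or innate lymphoid cells and vascular cells. In keratinocytes they were not past 2-fold (−0.63 and −0.47). Cstdc5 was a leading gene of keratinocyte clusters, and the part of free keratinocyte RNA in these 2 calls was not tested. There were 2 calls without the 8-week pair, 77 without the 26-week pair and 0 without the 52-week pair. No gene's 52-week difference departed from the younger pairs by edgeR (0% in either direction), where 126 genes were below an unadjusted p of 0.05 and 1 gene was called by DESeq2. Of the cells, 169 untreated and 195 treated lay in 1 cluster, and 125 and 51 in another. A further 1 untreated and 9 treated cells lay in the dendritic cluster led by Cd74 and H2-Aa. Their part in the class II levels was not tested on its own. The median macrophage had 2668 untreated and 3349 treated UMIs.

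Fxyd2 in macrophages was 31.5 CPM untreated (21.5 to 44.5) and 693 CPM treated (644 to 744), a log2 ratio of 4.08. It was found in 17 of 300 untreated and 119 of 263 treated macrophages, and in 3 and 60 when cells were thinned to 500 UMIs. The gene was also found in 11.4% of treated fibroblasts and 1.94% of treated keratinocytes. At 8 weeks Fxyd2 stood at 145 and 1619 CPM and at 26 weeks at 164 and 1111 CPM, so each treated library lay above each untreated one (3.78 ± 0.33 SE over the 3 ages, adjusted p = 0.00034, edgeR). Akr1b3, an aldose reductase that reduces sugars and lipid aldehydes, was 83.7 CPM untreated and 936 CPM treated, and it rose over the 3 ages (3.88 ± 0.30 SE, adjusted p = 0.000217, edgeR).

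The class II genes encode the molecules that present peptides to CD4 T cells. H2-Aa was 137 CPM (115 to 162) in untreated and 550 CPM (507 to 596) in treated macrophages, H2-Ab1 was 102 and 440, and H2-Eb1 was 85.6 and 395. The invariant chain Cd74 stood at 571 and 1633 CPM. Of 9 listed class II genes 6 were measured, 4 were at least 2-fold higher and 0 were lower, with a median log2 ratio of 1.72 against −0.13 for all measured macrophage genes. The list's median was 1.89 at 8 weeks and 0.01 at 26 weeks, where H2-Aa was already 2639 CPM in the untreated library. H2-Aa was not called over the 3 ages (1.62 ± 0.39 SE, adjusted p = 0.109, edgeR). H2-Aa was found in 40 of 300 untreated and 54 of 263 treated macrophages. Pooled dendritic-cell markers in macrophages stood at 0.758 and 2.06 UMIs per 10000, and with lineages taken from clusters the class II median was 0.58, so the size of this difference changed with the way macrophages were set apart from other cells.

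Among cytokines, Il1b was 1739 CPM in untreated and 4779 CPM in treated macrophages, a log2 ratio of 1.45. Treated libraries were also higher at 8 weeks (2710 and 5922) and at 26 weeks (3381 and 4237), but the gene did not pass over the 3 ages (adjusted p = 0.0759, edgeR), while DESeq2 gave an adjusted p of 0.018. Csf3, the growth factor of granulocytes, was 263 and 856 CPM. Tnf was 1652 and 2389 CPM, and Cxcl2 was 27196 and 26940 CPM, a log2 ratio of −0.01. Of 17 listed inflammatory cytokines 11 were measured in macrophages, 4 were at least 2-fold higher and 0 lower, with a median of 0.80. Of 24 chemokine genes 15 were measured, 1 was at least 2-fold higher and 0 were lower (median 0.50). Ifnb1, which encodes interferon β, was 655 CPM untreated (606 to 706) and 196 CPM treated (171 to 224), and was found in 92 of 300 and 56 of 263 cells. It was also lower after treatment at 8 weeks (640 and 468) and at 26 weeks (724 and 76.4), without passing over the 3 ages (adjusted p = 0.165, edgeR).

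Interferon-stimulated genes did not follow Ifnb1 at 52 weeks. Isg15, a ubiquitin-like protein induced by interferons, was 2994 CPM untreated and 3322 CPM treated in macrophages. The younger pairs stood at 3774 and 1931 CPM (8 weeks) and at 5062 and 1410 CPM (26 weeks). Of 22 listed interferon genes 20 were measured in macrophages, and 0 differed at least 2-fold in either direction at 52 weeks (median −0.23, against −1.44 at 8 weeks and −1.84 at 26 weeks). The 52-week difference of Isg15 did not pass as a departure from the younger pairs in macrophages (adjusted p = 0.739, edgeR). Of 13 genes listed for resident macrophages 9 were measured and 0 differed at least 2-fold. Folr2, a folate receptor, was 166 and 318 CPM, the platelet factor Pf4 was 4834 and 7623 CPM, and the mannose receptor Mrc1 was 201 and 308 CPM. C1qb, a complement subunit used as a lineage marker, was 597 and 547 CPM. Hspa5 was 2230 and 1150 CPM, and the unfolded protein response list had a median of −0.71 with 0 of 12 measured genes past 2-fold.

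Fibroblasts of untreated 52-week skin stood apart from those of the 5 other libraries by their collagen and chaperone levels, and treated 52-week fibroblasts lay near the younger ones in both. Each fibroblast was given a matrix sum, the UMIs per 10000 of 8 matrix genes (Col1a1, Col1a2, Col3a1, Col5a1, Col5a2, Col6a1, Sparc and Fbn1), and was called matrix-high at 100 or more. The median matrix sum was 74.9 untreated and 16.8 treated in the 52-week pair, 32.7 and 18.2 in the 8-week pair, and 14.4 and 13.1 in the 26-week pair. Matrix-high cells were 353 of 846 untreated fibroblasts (41.7%, 38.4 to 45.1) and 75 of 790 treated ones (9.49%, 7.54 to 11.8), a log2 ratio of −2.14 (−2.52 to −1.77). At 8 weeks the shares were 19.5% and 10.3% (log2 ratio −0.92, −1.32 to −0.52), and at 26 weeks 13% and 10.5% (−0.31, −0.69 to 0.07). The 4.40-fold gap at 52 weeks therefore came with an untreated share above every other library, while the treated shares lay between 9.49% and 10.5% at all ages. Of all cells, matrix-high fibroblasts were 9.58% untreated and 1.52% treated. A matrix sum is a range and not a cell type: 99 untreated and 33 treated fibroblasts had sums between 80 and 125. Taking the sum of the same fibroblasts from counts thinned to 500 UMIs a cell gave 45.2% and 12.2%. The median matrix-high cell carried 0 macrophage-marker UMIs per 10000 on both sides, and 0 untreated and 1.15 treated pericyte-marker UMIs.

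Another sum, over the 6 inflammatory genes Cxcl5, Ptx3, Cxcl1, Ccl2, Il6 and Ccl7, ran the other way. Its median was 55.8 per 10000 UMIs in untreated and 174 in treated 52-week fibroblasts. At 8 weeks it was 46.2 and 240, and at 26 weeks 84.3 and 59.9, so the 26-week pair did not share the direction. In clusters, 337 of the untreated and 25 of the treated fibroblasts lay in the cluster richest in untreated cells, while 120 and 438 lay in the one richest in treated cells. A further 103 untreated and 2 treated fibroblasts lay in a cluster of low-UMI cells with mixed markers, whose part in the shares was not tested.

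**Figure D2:**
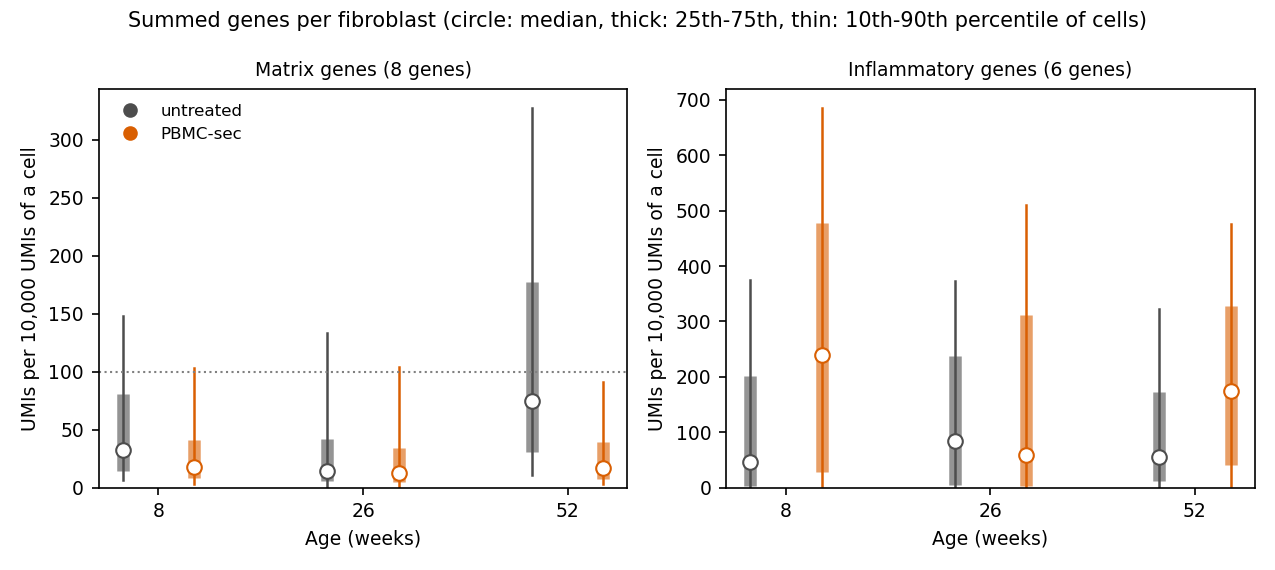
Distribution over fibroblasts of the matrix sum and the inflammatory sum (UMIs per 10000) in the 6 libraries: circles are medians, thick and thin bars span percentiles of cells as the title gives them, and the dotted line marks the matrix-high threshold of 100. The 52-week untreated library has the highest median matrix sum, 74.9, and its treated partner has 16.8.

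In summed fibroblast counts 93 of 2921 measured genes (3.18%) were at least 2-fold higher and 205 (7.02%) at least 2-fold lower in treated 52-week skin. TMM scaling gave 128 and 136, moved the median of all genes from −0.13 to 0.09, and moved the share of higher genes among those past 2-fold from 31.2% to 48.5%. Over the 3 ages edgeR's quasi-likelihood test with Benjamini-Hochberg adjustment called 90 genes higher (0.862%) and 89 lower (0.853%) of 10435. The 52-week difference departed from the younger pairs upward for 123 genes (1.18%) and downward for 57 (0.546%), while DESeq2 called 20 and 1 genes. Over the remaining pairs the treatment calls were 95 without the 8-week pair and 446 without the 52-week pair.

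Collagen transcripts were lower in treated fibroblasts. Col1a1, the main chain of dermal type I collagen and part of the matrix sum, stood at 988 and 522 CPM in the 8-week pair, 925 and 558 in the 26-week pair, and 4671 (4613 to 4728) and 786 (764 to 809) in the 52-week pair, untreated first. The 52-week log2 ratio was −2.56 and departed from the younger pairs (−1.56 ± 0.25 SE, adjusted p = 0.00788, edgeR), although DESeq2 gave an adjusted p of 0.0645. Col3a1, which forms type III fibrils, was 2340 and 616 CPM, and it fell over the 3 ages (−1.36 ± 0.26 SE, adjusted p = 0.0472, edgeR). Col12a1, which decorates fibrils, was 288 and 63.6 CPM, and Col5a1, which starts fibrils, was 276 and 77.5 CPM. Basement membrane collagen Col4a1 stood at 389 and 397 CPM. Of 17 listed collagens 16 were measured, 13 were at least 2-fold lower and 0 higher, with a median of −1.29 against −0.13 for all measured genes. The median was −0.37 at 8 weeks and −0.18 at 26 weeks, and −1.09 at 52 weeks with TMM scaling. By edgeR 2 of 17 fell over the 3 ages and 3 departed downward at 52 weeks, beside 0.853% and 0.546% of all genes tested. Some of these collagens also served as fibroblast markers and in the matrix sum, so they are not independent of either.

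Among single genes of collagen processing and the matrix, some were lower and some higher. Lox, the enzyme that crosslinks collagen, was 392 and 87.5 CPM in the 52-week pair, 82.1 and 52.3 in the 8-week pair, and 67.9 and 25.3 in the 26-week pair, and it fell over the 3 ages (−1.41 ± 0.26 SE, adjusted p = 0.0422, edgeR). Serpinh1, the collagen chaperone HSP47, was 911 and 244 CPM (adjusted p = 0.0472 over the 3 ages, edgeR). Cthrc1, a secreted protein of matrix-producing fibroblasts, was 125 and 13.2 CPM (−2.45 ± 0.37 SE, adjusted p = 0.0295, edgeR). Thbs4, a matrix protein of tendon and healing tissue, was 509 and 65.8 CPM, and Scube3, a secreted glycoprotein, was 71.7 and 1.19 CPM, with at most 0.869 CPM in the younger libraries. The proliferation gene Ube2c was 53.4 and 3.22 CPM (adjusted p = 0.0328 over the 3 ages, edgeR). Its younger counts were few, at 19 and 4 UMIs at 8 weeks and 2 and 3 at 26 weeks, so the 26-week pair did not share the direction. The proteoglycan Dcn stood at 4400 untreated and 6881 treated CPM, and Dpt, a dermal matrix protein, at 75.4 and 218 CPM. Of 23 listed matrix glycoproteins 21 were measured, 6 were at least 2-fold lower and 1 higher (median −0.46).

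The chaperone genes of the unfolded protein response followed the same course. In fibroblasts Hspa5 stood at 2328 and 1553 CPM in the 8-week pair, 1247 and 852 in the 26-week pair, and 5471 (5409 to 5533) and 1138 (1111 to 1166) in the 52-week pair, untreated first. The 52-week untreated library was the highest of the 6, and the log2 ratio of −2.25 departed from the younger pairs (−1.51 ± 0.24 SE, adjusted p = 0.00809, edgeR; adjusted p = 0.0701, DESeq2). Hsp90b1 was 4351 and 1115 CPM at 52 weeks (−1.95) and was lower after treatment at both younger ages too, without passing over the 3 ages by edgeR (adjusted p = 0.0552). Manf, a secreted stress factor, was 660 and 214 CPM, Pdia4, a disulfide isomerase, 408 and 143 CPM, and Ddit3 (CHOP), a transcription factor of prolonged stress, 265 and 82.0 CPM. Of 15 listed genes 13 were measured, 7 were at least 2-fold lower and 0 higher, with a median of −1.29. The median was −0.46 at 8 weeks and −0.19 at 26 weeks, 0 of 15 passed over the 3 ages, and 1 departed downward at 52 weeks. Of all fibroblast genes tested 0.546% departed downward. With lineages taken from clusters the 52-week median was −0.70.

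The difference in Hspa5 was seen inside both parts of the fibroblast range. Among matrix-high cells Hspa5 was 5212 CPM untreated and 1177 treated (log2 ratio −2.14), and among all other fibroblasts 5680 and 1135 (−2.31). Hsp90b1 gave −2.04 and −2.14, and Manf −1.76 and −1.68. The untreated library was higher in both parts, by similar amounts.

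Promoters of these genes are shown because the chaperones were lower together and the classic endoplasmic reticulum stress element is short enough to read. The element was searched on both strands as CCAAT, 9 bases of any kind, then CCACG, in the window from 250 bases before to 50 after each start in RefSeq promoters of GRCm38.p6. It was present in 39 of 32851 promoters (0.119%) and in 3 of the 14 listed unfolded protein response genes with a promoter sequence, namely Hspa5, Hsp90b1 and Creld2. The stretches below run 5′ to 3′ on the gene's strand, with the matches in capitals. Those of Hspa5, on chr2:34772005-34772063 (plus strand), and of Creld2, on chr15:88819500-88819558 (plus strand), hold 1 match each. That of Hsp90b1, on chr10:86705513-86705676 (minus strand), holds 2 matches, 1 in each orientation.
Hspa5: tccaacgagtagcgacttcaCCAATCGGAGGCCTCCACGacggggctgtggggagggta
Hsp90b1: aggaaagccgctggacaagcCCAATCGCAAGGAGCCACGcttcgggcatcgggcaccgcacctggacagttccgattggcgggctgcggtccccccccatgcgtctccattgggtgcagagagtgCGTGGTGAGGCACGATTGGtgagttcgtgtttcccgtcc
Creld2: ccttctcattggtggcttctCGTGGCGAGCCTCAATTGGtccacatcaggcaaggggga
A match did not go with a like difference: Creld2, a chaperone-associated secreted protein, was 228 and 142 CPM in 52-week fibroblasts, a log2 ratio of −0.64, and Manf differed more without a match in its window.

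Of 20 listed antioxidant genes of the NRF2 pathway 5 rose in treated fibroblasts over the 3 ages, beside 0.862% of all genes tested. Nqo1, a quinone reductase, stood at 33.9 and 157 CPM in the 8-week pair, 49.5 and 276 in the 26-week pair, and 29.8 (25.4 to 34.8) and 209 (198 to 221) in the 52-week pair, untreated first, so the treated libraries lay above all untreated ones (2.54 ± 0.19 SE, adjusted p = 0.00304, edgeR). Prdx1, a peroxide-reducing enzyme, was 1168 and 4413 CPM at 52 weeks (1.6 ± 0.21 SE over the 3 ages, adjusted p = 0.0225, edgeR). Gclc, the catalytic subunit of glutathione synthesis, was 113 and 452 CPM (adjusted p = 0.0401, edgeR). Srxn1, which repairs peroxiredoxins, was 205 and 732 CPM (adjusted p = 0.0407, edgeR), and Slc7a11, the cystine importer, 110 and 395 CPM (adjusted p = 0.0247, edgeR). Gclm, the regulatory subunit of glutathione synthesis, was 199 and 511 CPM without passing (adjusted p = 0.0924, edgeR). Hmox1, the heme oxygenase often used as an NRF2 readout, was 1340 and 1493 CPM. Of 20 listed NRF2 genes 18 were measured in 52-week fibroblasts, 9 were at least 2-fold higher and 0 lower, with a median of 1.0. The median was 0.42 at 8 weeks and 0.62 at 26 weeks. Of all measured fibroblast genes 3.18% were at least 2-fold higher at 52 weeks. Ferritin heavy chain Fth1, the iron store, was 10798 and 29420 CPM, and its 52-week difference departed from the younger pairs by edgeR (1.42 ± 0.22 SE, adjusted p = 0.00639) but not by DESeq2 (adjusted p = 0.11).

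The antioxidant response element core was searched as TGACNNNGC on both strands in the same promoter windows. It was present in 4071 of 32851 promoters (12.4%) and in 6 of the 16 listed NRF2 genes with a promoter sequence, but also in 3 of the 14 unfolded protein response genes, so this short core separates the lists poorly. The stretches of Gclm, on chr3:122245403-122245451, and Prdx1, on chr4:116685446-116685494, both on the plus strand, are shown as examples, since their levels differed between the 52-week libraries. Both carry the core in reverse orientation, in capitals.
Gclm: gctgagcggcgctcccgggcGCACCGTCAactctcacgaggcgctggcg
Prdx1: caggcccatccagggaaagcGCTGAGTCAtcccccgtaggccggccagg
Heat-shock genes served as a contrast. The element GAANNTTC was in 2582 promoters (7.86%) and in 8 of the 9 listed heat-shock genes with a promoter sequence. Over all 12 measured heat-shock genes the fibroblast median at 52 weeks was −0.34.

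The same split gave less even values for antioxidant genes, and the difference between the parts was not tested. Nqo1 was 19.4 and 214 CPM in matrix-high cells (2.93) and 38.3 and 209 CPM in the others (2.18). Prdx1 was 1040 and 2154 CPM in matrix-high cells (1.04) and 1272 and 4635 CPM in the others (1.86). Akr1b3, the aldose reductase named above, was 44.1 and 466 CPM in matrix-high cells and 59.7 and 466 CPM in the others. Over all fibroblasts it was 52.7 (46.8 to 59.2) and 466 CPM (448 to 483) and rose over the 3 ages (3.13 ± 0.17 SE, adjusted p = 0.00116, edgeR). Arg2, a mitochondrial arginase, was 1.47 and 53.9 CPM at 52 weeks and rose as well (4.6 ± 0.40 SE, adjusted p = 0.00506, edgeR).

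The matrix protease genes Mmp3 and Mmp13 and the antiprotease gene Slpi were higher in treated fibroblasts. Mmp3 (stromelysin), which cleaves many matrix proteins, stood at 5429 and 7603 CPM in the 8-week pair, 4291 and 11598 in the 26-week pair, and 2144 and 9799 in the 52-week pair, untreated first. It was found in 402 of 846 untreated and 672 of 790 treated 52-week fibroblasts. Its 52-week difference departed from the younger pairs by edgeR (1.42 ± 0.32 SE, adjusted p = 0.0421) and not by DESeq2 (adjusted p = 1). The collagenase Mmp13 was 158 and 1293 CPM at 52 weeks and rose over the 3 ages (2.57 ± 0.35 SE, adjusted p = 0.0226, edgeR). Slpi, an inhibitor of neutrophil elastase, was 335 (319 to 350) and 2951 CPM (2907 to 2995) at 52 weeks, against 2043 and 4564 at 8 weeks and 1499 and 4480 at 26 weeks. The untreated 52-week level of Slpi was the lowest of the 6 libraries, and its difference departed from the younger pairs (1.96 ± 0.26 SE, adjusted p = 0.00261, edgeR). In matrix-high cells Slpi was 303 and 6792 CPM and in the others 361 and 2574. Of 19 listed matrix proteases and inhibitors 17 were measured, 4 were at least 2-fold higher and 0 lower, but the median was 0.07, and −0.02 with thinned cells.

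Chemokines that attract neutrophils were higher in treated fibroblasts although neutrophils were fewer in that library. Cxcl3 was 1132 and 3273 CPM in the 8-week pair, 906 and 1642 in the 26-week pair, and 774 and 3495 in the 52-week pair, and it rose over the 3 ages (1.55 ± 0.29 SE, adjusted p = 0.0466, edgeR). Cxcl5 was 1869 and 4819 CPM at 52 weeks and higher after treatment at every age, without passing (adjusted p = 0.113, edgeR). Cxcl2 was 3159 and 7874 CPM and Cxcl1 4686 and 6709 CPM. The monocyte attractant Ccl2 was 3409 and 7242 CPM. Cxcl5 and Ccl2 were higher outside the matrix-high cells at 52 weeks and nearly level inside them: Cxcl5 was 1344 and 1318 CPM in matrix-high cells and 2294 and 5162 in the others, and Ccl2 was 2958 and 2740 against 3774 and 7684. Whether these parts differ was not tested. Of 24 listed chemokines 14 were measured, 6 were at least 2-fold higher and 1 lower (median 0.65). The exception was Cxcl10, an interferon-induced attractant of T cells, at 147 and 39.3 CPM, which fell over the 3 ages (−3.21 ± 0.48 SE, adjusted p = 0.0289, edgeR).

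Ccl5, an attractant of T cells and monocytes, was 688 and 373 CPM in the 8-week pair, 176 and 71.0 in the 26-week pair, and 34.8 and 295 in the 52-week pair, so the treated library was lower at both younger ages and higher at 52 weeks. Its 52-week difference departed from the younger pairs (4.35 ± 0.31 SE, adjusted p = 7.54e-05, edgeR). It came from 28 of 846 untreated and 109 of 790 treated fibroblasts. Of 17 listed inflammatory cytokines 10 were measured in fibroblasts, 6 were at least 2-fold higher and 1 lower, with a median of 1.06 beside 0.87 at 8 weeks and 0.17 at 26 weeks. By edgeR 1 of 14 tested rose and 1 fell over the 3 ages, and 0 departed at 52 weeks. Of all fibroblast genes tested 0.862% rose and 0.853% fell over the 3 ages. Il6 was 636 and 1473 CPM, Csf2 360 and 799, Csf3 212 and 466, and Csf1, the growth factor of macrophages, 642 and 1313. Tslp, an alarmin that acts on dendritic cells and lymphocytes, was 19.5 and 110 CPM and rose over the 3 ages (2.64 ± 0.47 SE, adjusted p = 0.0407, edgeR). Il33, an alarmin stored in the nucleus, was the 1 cytokine at least 2-fold lower, at 305 and 138 CPM, and fell over the 3 ages (−1.15 ± 0.17 SE, adjusted p = 0.0254, edgeR).

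Interferon-stimulated genes set the 52-week fibroblasts apart from the younger pairs. Isg15 was 1663 and 362 CPM in the 8-week pair and 1113 and 302 in the 26-week pair, but 741 and 692 in the 52-week pair, a log2 ratio of −0.10. Its 52-week difference departed from the younger pairs (2.13 ± 0.26 SE, adjusted p = 0.00184, edgeR). Bst2, which tethers enveloped viruses, was 2073 and 470 CPM, 1576 and 424 CPM, and 892 and 840 CPM in the same order. Ifi27l2a was 531 and 543 CPM at 52 weeks after 876 and 211 at 8 weeks. Of 22 listed interferon genes 14 were measured at 52 weeks, 0 were at least 2-fold higher and 1 was lower, with a median of −0.41 beside −1.94 at 8 weeks and −1.78 at 26 weeks. By edgeR 18 of 21 tested departed upward at 52 weeks, beside 1.18% of all fibroblast genes tested. The untreated 52-week level of Isg15 lay below both younger untreated levels, and the treated level lay above both younger treated ones.

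Of 13 listed complement genes 6 were measured in fibroblasts, 2 were at least 2-fold higher and 0 lower (median 0.65). C3, the central complement protein, was 181 and 663 CPM at 52 weeks (log2 ratio 1.82, adjusted p = 0.128 for the departure from the younger pairs, edgeR). C4b was 130 and 304 CPM, and its difference departed from the younger pairs (adjusted p = 0.0444, edgeR). Immediate early genes, which cells switch on within minutes of a stimulus, were lower in treated fibroblasts: 18 of 21 were measured, 4 were at least 2-fold lower and 0 higher (median −0.58). Fos was 486 and 157 CPM and Egr1 750 and 268 CPM. Ribosomal protein genes had a median of 0.02.

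**Figure D3:**
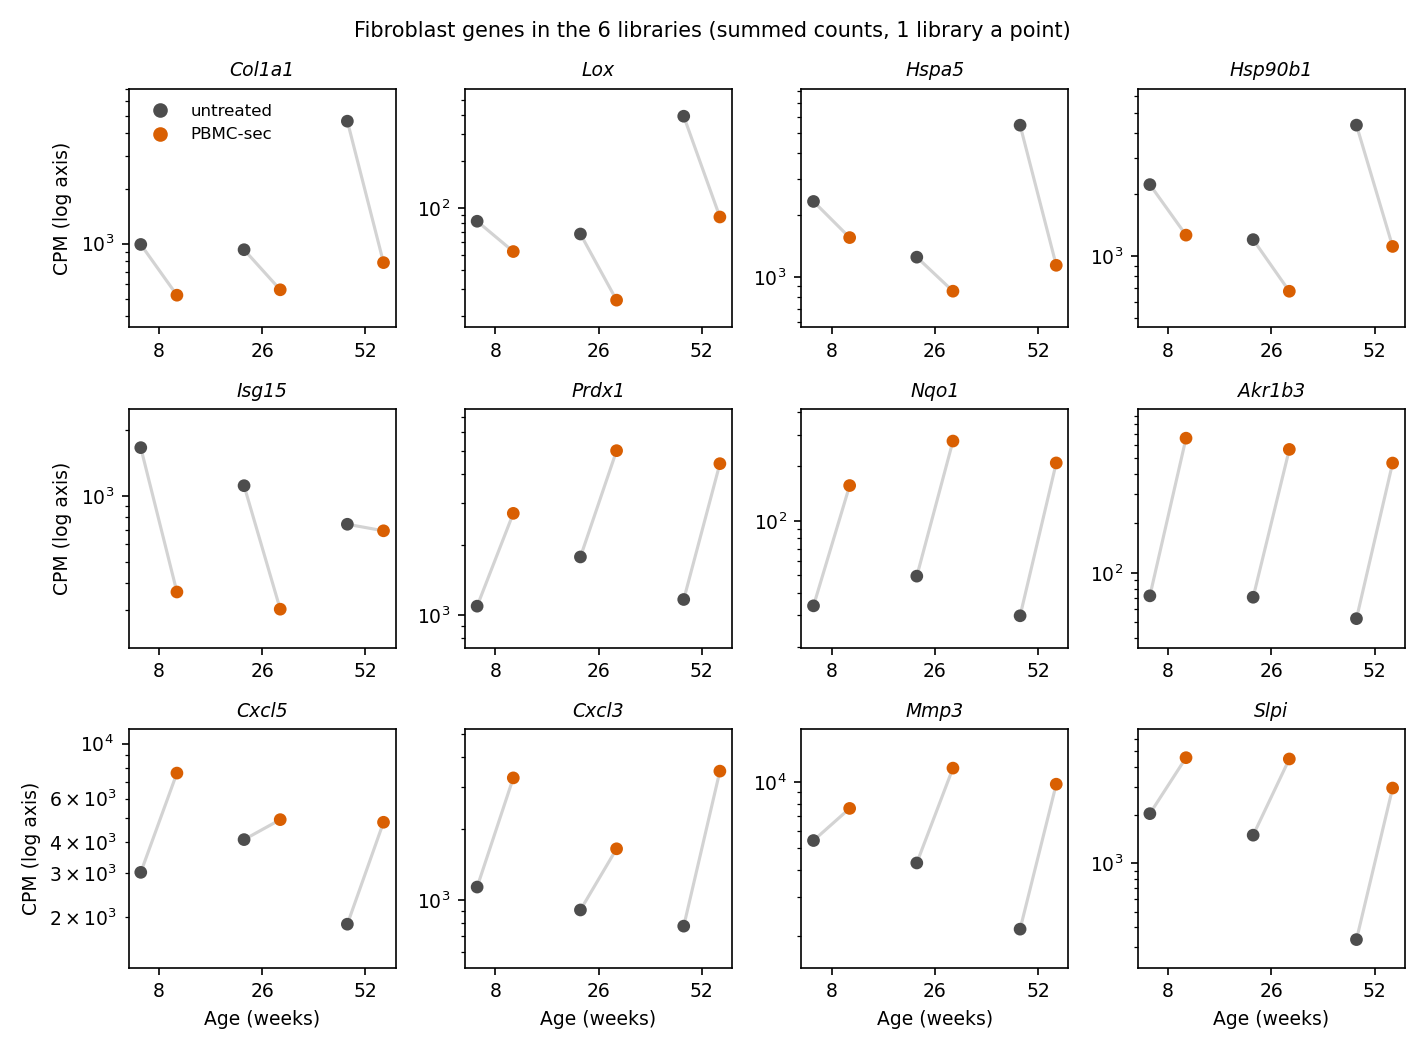
Fibroblast level (CPM, log axis) of 12 genes in each of the 6 libraries, untreated and treated joined by age. Col1a1, Lox, Hspa5 and Hsp90b1 are highest in the 52-week untreated library, Nqo1 and Akr1b3 are higher in each treated library, and Isg15 differs at 8 and 26 weeks but stands at 741 and 692 CPM at 52 weeks.

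Keratinocytes of treated 52-week skin had more transcripts of the Lce3 genes and of several small proline-rich proteins, and fewer of Col17a1 and of interferon genes. Of 3030 measured genes 53 (1.75%) were at least 2-fold higher and 255 (8.42%) at least 2-fold lower. TMM scaling reversed this balance to 327 higher and 21 lower, and moved the median of the genes from −0.36 to 0.34, so a keratinocyte log2 ratio is relative to that median. Over the 3 ages edgeR's quasi-likelihood test with Benjamini-Hochberg adjustment, which uses TMM scaling, called 976 genes higher (7.47%) and 997 lower (7.63%) of 13072, together 1973, and 1260 without the 26-week pair. At 52 weeks 31 departed upward (0.237%) and 7 downward (0.0535%) from the younger pairs. The 2 libraries filled different keratinocyte clusters: 1 cluster held 426 untreated and 47 treated cells, and another 15 and 476. Cells of this lineage also lay in clusters named for other lineages. A low-UMI cluster with mixed markers held 169 untreated and 8 treated of them, and a fibroblast cluster 78 and 9. A macrophage cluster held 86 and 10, and the neutrophil cluster 47 and 2. Their part in the keratinocyte ratios was not tested on its own.

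Akr1b3 was the gene with the highest log2 ratio in keratinocytes. It stood at 28.0 and 776 CPM in the 8-week pair, 28.6 and 487 in the 26-week pair, and 27.7 (24.8 to 30.9) and 721 (711 to 730) in the 52-week pair, and was found in 202 of 2039 untreated and 1184 of 2881 treated cells. It rose over the 3 ages (4.83 ± 0.27 SE, adjusted p = 0.000374, edgeR). Nppb, a natriuretic peptide gene, was 72.8 and 567 CPM (adjusted p = 0.00122, edgeR), and Cryab, a small heat-shock protein, 58.5 and 565 CPM (adjusted p = 0.00442, edgeR). Wfdc12, a secreted antiprotease, was 112 and 8.59 CPM in the 8-week pair, 43.1 and 2.68 in the 26-week pair, and 159 and 3.18 in the 52-week pair, and it fell (−4.14 ± 0.26 SE, adjusted p = 0.000374, edgeR).

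The Lce3 genes, which encode envelope proteins induced in damaged epidermis, were higher in treated 52-week keratinocytes. Lce3a was at 2.89 CPM untreated (2.0 to 4.03) and 231 CPM treated (226 to 237), beside 4.08 and 9.36 at 8 weeks and 8.15 and 21.0 at 26 weeks. Lce3b was 18.0 and 244 CPM, Lce3d 281 and 1736, and Lce3e 20.9 and 203. The late cornified envelope family did not differ as a whole: Lce1k stood at 190 CPM untreated and 18.9 CPM treated (log2 ratio −2.79), found in 13 untreated and 33 treated cells, with 927 of its 2238 untreated UMIs in 1 cell and −2.68 without the top cells. Sprr2f, a small proline-rich crosslinked protein, was 317 and 305 CPM in the 8-week pair, 477 and 604 in the 26-week pair, and 441 and 2869 in the 52-week pair. The 52-week differences of Lce3a (adjusted p = 0.00035), Lce3b (adjusted p = 0.00265), Lce3d (adjusted p = 0.0312) and Sprr2f (adjusted p = 0.0134) departed from the younger pairs by edgeR. Lce3a was found in 9 of 2039 untreated and 95 of 2881 treated cells, and 1 cell held 2656 of its 6917 treated UMIs; without it and the top untreated cell the log2 ratio was 3.79. Sprr1b rose over the 3 ages (2.38 ± 0.37 SE, adjusted p = 0.00656, edgeR) and stood at 1041 and 6161 CPM at 52 weeks. Of 21 listed wound keratinocyte genes 15 were measured, 5 were at least 2-fold higher and 1 lower (median 0.12, or 0.80 with TMM scaling and −0.10 with cells thinned to 500 UMIs). Filaggrin, Flg, the precursor that bundles keratin in the upper layers, was 242 and 616 CPM and rose over the 3 ages (adjusted p = 0.00161, edgeR).

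Col17a1, which anchors basal keratinocytes in hemidesmosomes, was 1336 and 856 CPM in the 8-week pair, 1619 and 592 in the 26-week pair, and 1028 and 312 in the 52-week pair, and it fell over the 3 ages (−0.97 ± 0.22 SE, adjusted p = 0.026, edgeR). Itgb4, its integrin partner, was 373 and 122 CPM, and Lama3, a laminin chain of the basement membrane, 338 and 121 CPM. The basal keratins Krt14 (5628 and 4140 CPM) and Krt5 (2831 and 2534 CPM) differed less. All 13 listed basal genes were measured. With plain CPM 7 were at least 2-fold lower and 0 higher (median −1.02 beside −0.36 for all genes), and with TMM scaling 1 was lower and 0 higher (median −0.35 beside 0.34). The median was 0.13 at 8 weeks and −0.40 at 26 weeks. Over the 3 ages 1 of 13 fell by edgeR, a share close to the 7.63% of all genes.

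Most interferon genes tested fell in treated keratinocytes over the 3 ages. Isg15 was 191 and 27.8 CPM in the 8-week pair, 53.3 and 13.8 in the 26-week pair, and 135 and 26.3 in the 52-week pair (−2.06 ± 0.22 SE, adjusted p = 0.00184, edgeR). Of the 22 listed genes 5 were measured at 52 weeks and 4 were at least 2-fold lower (median −1.83), and 17 of 19 tested fell over the 3 ages. Of all measured keratinocyte genes 8.42% were at least 2-fold lower at 52 weeks, and 7.63% of all genes tested fell over the 3 ages. The 52-week Isg15 difference did not pass as a departure from the younger pairs (adjusted p = 0.579, edgeR), where the fibroblast one did. The inducible heat-shock genes Hspa1a (990 and 235 CPM, adjusted p = 0.00271, edgeR) and Hspa1b (866 and 271 CPM, adjusted p = 0.00642, edgeR) fell over the 3 ages.

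**Figure D4:**
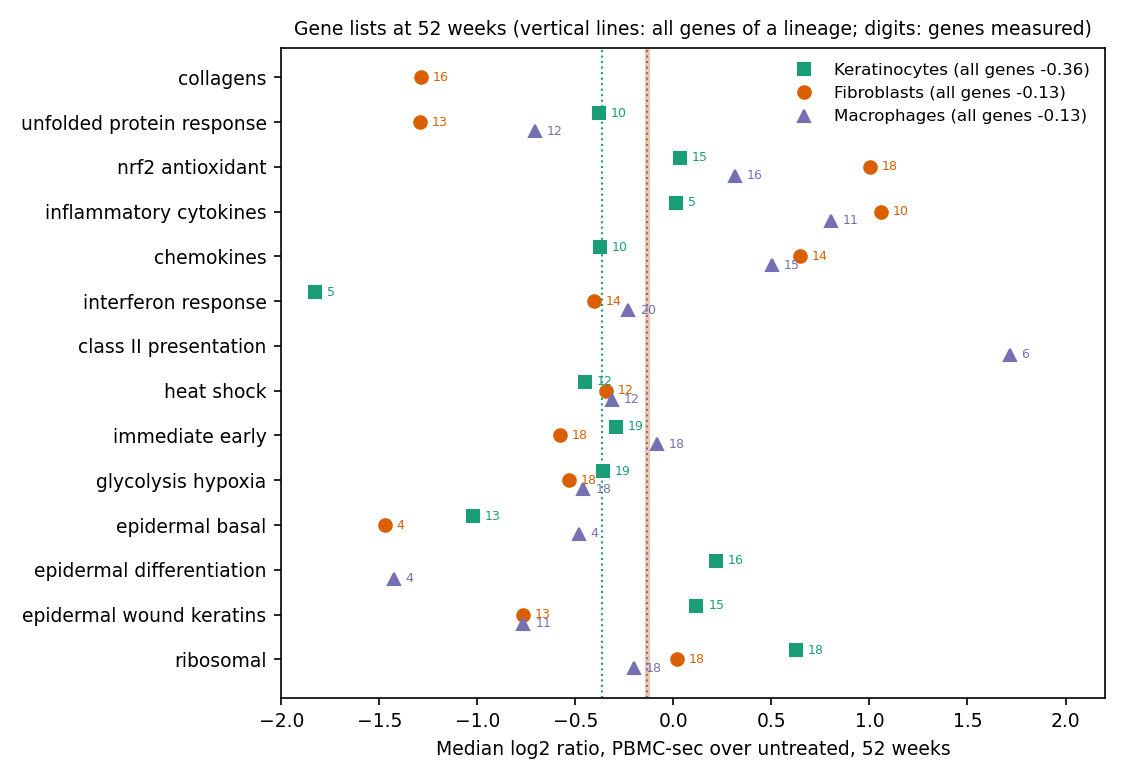
Median log2 ratio at 52 weeks (treated over untreated CPM, 10 CPM added) of 14 gene lists in keratinocytes, fibroblasts and macrophages, with vertical lines at the median of all measured genes. Collagens and the unfolded protein response lie at −1.29 in fibroblasts, NRF2 genes at 1.0, and class II genes at 1.72 in macrophages.

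Small lineages gave values that often rested on single cells. T or innate lymphoid cells had 79582 untreated and 148854 treated UMIs, and of 1245 measured genes 109 (8.76%) were at least 2-fold higher and 89 (7.15%) lower, or 216 and 46 with TMM scaling, which moved the median of all genes from 0.05 to 0.36. Over the 3 ages edgeR called 18 genes higher (0.606%) and 11 lower (0.37%) of 2972 (together 54 without the 8-week pair and 18 without the 52-week pair), and 7 (0.236%) and 9 (0.303%) departed upward and downward at 52 weeks. Gzma, a granzyme of killer lymphocytes, had 0 untreated UMIs and 83 treated ones in 1 cell, and Il5, a cytokine of type 2 lymphocytes, had 38 untreated UMIs in 1 cell and 0 treated ones. Hist1h2bc, a histone gene, was 50.3 and 363 CPM in these cells and rose over the 3 ages (adjusted p = 2.61e-05, edgeR). Fabp5, a fatty-acid carrier abundant in keratinocytes, was 2217 and 2151 CPM in the 8-week pair, 1761 and 1372 in the 26-week pair, and 1596 and 121 in the 52-week pair, and its 52-week difference departed from the younger pairs (−3.30, adjusted p = 7.17e-07, edgeR). The keratins Krt16 (515 and 67.2 CPM) and Krt6b (251 and 20.2 CPM) were lower in the same cells, which carried 50.3 untreated and 15 treated keratinocyte-marker UMIs per 10000 at the median. Of 21 wound keratinocyte genes 8 were measured there and 7 were at least 2-fold lower, and the part of free RNA in these values was not tested.

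Vascular endothelial cells, which line vessels and let leukocytes pass, had 204771 untreated and 295384 treated UMIs. Of 2552 measured genes 108 (4.23%) were at least 2-fold higher and 138 (5.41%) lower, or 153 and 98 with TMM scaling. Over the 3 ages edgeR called 20 higher (0.461%) and 19 lower (0.438%) of 4338 (together 60 to 163 with 1 age pair left out), and 4 (0.0922%) and 1 (0.0231%) departed at 52 weeks. Akr1b3 was 39.1 CPM untreated (16.9 to 77.0, 8 UMIs) and 2326 CPM treated (2155 to 2506, 687 UMIs) and rose over the 3 ages (4.47 ± 0.36 SE, adjusted p = 0.000132, edgeR). It was found in 28 of 75 treated cells, and 1 of them held 321 UMIs. Without the top cell of each library the log2 ratio was 5.40. Cxcl3 was 14.7 and 383 CPM and rose (adjusted p = 0.00465, edgeR), Srxn1 was 73.3 and 308 CPM and rose (adjusted p = 0.00465, edgeR), and Hsp90b1 was 1587 and 664 CPM and fell (adjusted p = 0.041, edgeR). Of 20 NRF2 genes 17 were measured, 4 were at least 2-fold higher and 0 lower (median 0.61), and of 15 unfolded protein response genes 11 were measured, 0 were higher and 4 lower (median −0.80). Bst2 was 776 and 335 CPM and fell over the 3 ages (adjusted p = 0.00465, edgeR). Among 17 genes of endothelial activation 11 were measured, 1 was higher and 2 lower, the latter including the leukocyte adhesion gene Selp at 195 and 64.3 CPM.

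The reliance on single cells was counted for the 16 genes that the naming rule chose in each lineage. In 7 of 16 T or innate lymphoid genes and 7 of 16 vascular genes over 50% of the UMIs came from 1 cell in the library where the gene was higher, against 0 of 16 in keratinocytes, 0 of 16 in fibroblasts and 1 of 16 in macrophages. That macrophage gene was Nppb, with 117 of 128 treated UMIs in 1 cell and a log2 ratio of 0.35 without the top cell of each library. Retnla, a marker of alternatively activated macrophages, was 11.8 and 252 CPM in macrophages, found in 5 of 300 and 13 of 263 cells, and 126 of its 275 treated UMIs came from 1 cell. Without the top cell of each library its log2 ratio was 3.13.

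**Figure D5:**
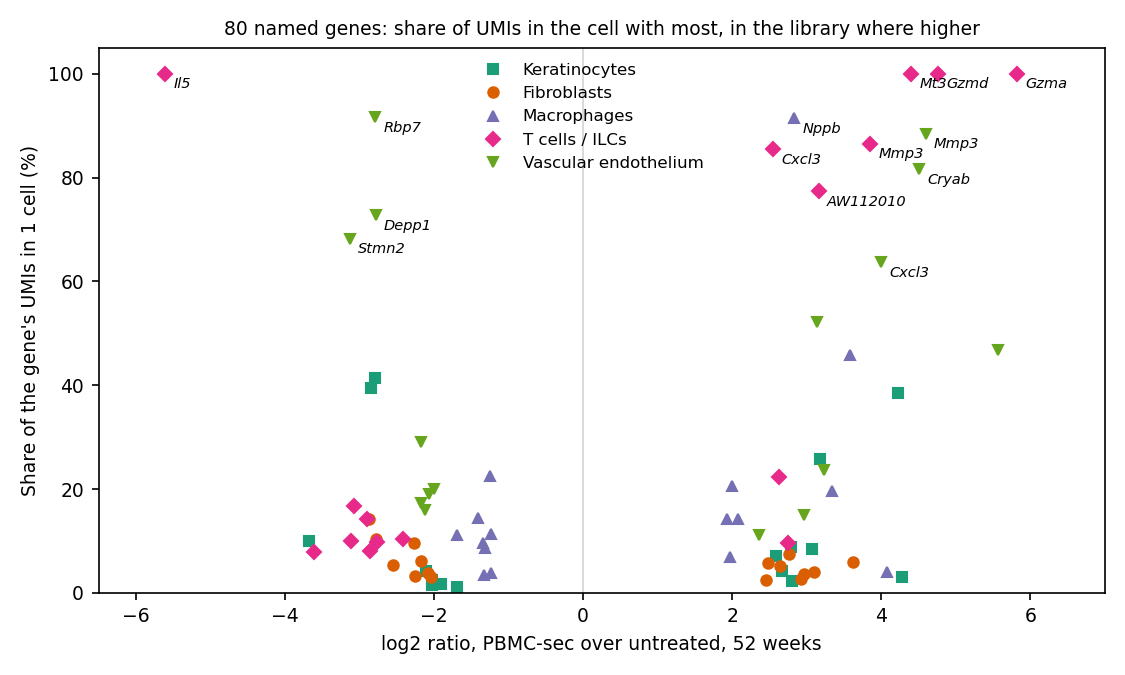
Share of a gene's UMIs held by 1 cell (%) in the library where the gene was higher, against its log2 ratio at 52 weeks, for the 80 named genes of 5 lineages. The 16 fibroblast genes all lie low, while 7 vascular and 7 T or innate lymphoid genes lie above 50%.

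Of 1590 genes measured in at least 4 of the 5 lineages, 4 were at least 2-fold higher in at least 4 (Akr1b3, Cxcl5, H1f0 and Odc1) and 15 lower, among them the chaperones Pdia3 and Ppib, the immediate early gene Egr1, the intermediate filament gene Vim and the keratins Krt16 and Krt17. In keratinocytes themselves Krt16 (log2 ratio 0.04) and Krt17 (−0.14) were nearly level. Krtdap, Cst6, Cstdc5, Stfa1 and Bnip3, also among the 15, were not past 2-fold in keratinocytes either. The part of free keratinocyte RNA in these genes was not tested. Of 860 genes measured in all 5, 0 were past 2-fold in all. Akr1b3 was not higher everywhere: it was 31.0 and 40.7 CPM in pericytes or smooth muscle cells, 50.3 and 47.0 in T or innate lymphoid cells, and 32.0 and 140 in dendritic or Langerhans cells.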

How the data were processed

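The values deposited by the authors are raw UMI counts of 32285 genes in each cell barcode, made with Cell Ranger 5.0.1 per the file headers. The genome build was mm10 (GRCm38), per the submitters' processing notes. Per the labels, libraries were made with a 10x 3′ kit. Files of genes and barcodes were used for names. Cells were filtered and then put into 15 classes by marker UMIs (at least 3 UMIs of at least 2 genes, above a limit per 10000 UMIs). These limits were set after seeing the data. Members and gene lists were chosen with earlier results of these data known, so no list is independent evidence. Of 496 list members, 4 were not analysed here. Scrublet called 0 doublets automatically, and doublets were therefore kept. Clusters (scanpy 1.11.5, Leiden resolution 1, 2000 variable genes, 30 components, 20 neighbours) served as an alternative.

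Counts were summed per lineage and library. Differences at 52 weeks are values without a test. Lineages that had 30 or more cells in each of the 6 libraries were tested with edgeR 4.0.16 (quasi-likelihood, TMM, filterByExpr, Benjamini-Hochberg, threshold 0.05), with age and treatment as factors, and DESeq2 1.42.0 as an alternative. Both fits were also run on counts simulated from fitted age means, with 200 changed genes and no other treatment difference. That run holds no spread between animals, so it cannot show whether the calls hold between animals. The p-values measure the spread between ages, not between animals. Genes named are the 8 highest and 8 lowest log2 ratios per lineage, without lineage markers, predicted genes, mitochondrial genes and free-RNA genes, plus members of the described lists. Stated intervals cover counting error only. The confidence level is 95%. Promoters are from RefSeq.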

Additional observations from a re-analysis of the deposited data

Results flagged for a closer look

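In each gene below except Retnla, the 52-week difference departed from that of the younger pairs by edgeR's quasi-likelihood test with Benjamini-Hochberg adjustment; values are log2 ratios at 52 weeks, and no cause was tested. In keratinocytes these were Lce3a (4.23), Lce3b (3.18), Sprr2f (2.68) and Lce3d (2.58) upward and Cx3cr1 (−2.84) downward, each also called by DESeq2 (adjusted p of 5.88e-09 for Lce3d). In fibroblasts they were Mt3 (3.62), a metallothionein, Slpi (3.10), Ccl5 (2.77) and the stefin gene Stfa3 (2.64) upward, each also called by DESeq2. Hspa5 (−2.25, DESeq2 adjusted p = 0.0701) and Csrp2 (−2.08, DESeq2 adjusted p = 0.90), a LIM-domain gene, departed downward in fibroblasts by edgeR alone.

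In T or innate lymphoid cells Cxcl3 (2.55) departed upward by edgeR but not by DESeq2 (adjusted p = 1.0), with 53 of 62 treated UMIs in 1 cell and a ratio of 0.26 without the top cells. Fabp5 (−3.62), Krt6b (−3.12), S100a14 (−2.89) and Krt16 (−2.77) departed downward. Of these 4 DESeq2 called Fabp5 (adjusted p = 0.000823). In vascular endothelial cells Mmp3 (4.6), Cryab (4.51) and Depp1 (−2.78) departed by edgeR, and DESeq2 called none of these 3 (lowest adjusted p = 0.445, Cryab). The Mmp3 value rested on 1 cell with 184 of 208 treated UMIs, and the Cryab value on 1 cell with 133 of 163. For Depp1, 144 of 198 untreated UMIs came from 1 cell. Without the top cell of each library the ratios were 2.64 for Mmp3, 2.63 for Cryab and −1.98 for Depp1. With lineages from clusters the Cryab ratio was −0.70.

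Retnla in macrophages had a log2 ratio of 3.59 at 52 weeks and of −0.91 and −1.21 at 8 and 26 weeks. It was singled out because the 52-week pair and the younger pairs ran in opposite directions. edgeR did not call that difference (adjusted p = 0.171), whereas DESeq2 did (adjusted p = 0.000255).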

How the results depend on the processing

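Thinning every cell to 500 UMIs gave a log2 share ratio of −0.69 for fibroblasts and −0.0811 for T or innate lymphoid cells, the latter reversed in sign. The keratinocyte ratio was 0.20 with at least 1000 UMIs per cell and 0.47 with lineages from clusters. The matrix-high log2 ratio was −1.73 when both the lineage and the matrix sum came from thinned cells, −1.67 at a lower and −2.59 at a higher threshold. The log2 ratios of the neutrophil and macrophage shares stayed within their intervals under the 6 alternatives run, though the shares themselves did not. With lineages from clusters Mmp3 (−0.17) and the chemokine list (−0.15) in T or innate lymphoid cells, and Cryab (−0.70) and the cytokine list (−0.11) in vascular cells, reversed in sign. Counts of genes past 2-fold in keratinocytes were 327 higher and 21 lower with TMM scaling, 17 and 24 at 3-fold, and 431 lower with no minimum beyond 1 UMI. In fibroblasts 136 were lower with TMM scaling, and 36 higher and 53 lower at 3-fold. In macrophages they were 20 and 10 at 3-fold, 134 and 102 with no minimum, and 36 lower at 100 UMIs. Genes called by edgeR over the 3 ages (keratinocytes, fibroblasts, macrophages, T or innate lymphoid, vascular) were 1973, 179, 8, 29 and 39. With no low-count filter they were 3100, 1236, 114, 47 and 190. With thinned cells they were 585 in keratinocytes, 45 in macrophages, 14 in T or innate lymphoid cells and 10 in vascular cells, and with DESeq2 278 in fibroblasts, 25, 9 and 21 in the last 3. Leaving out 1 age pair gave 1260 to 2429, 95 to 446, 0 to 77, 18 to 54 and 60 to 163. Fibroblast calls were fewest without the 8-week pair and macrophage calls were 0 without the 52-week pair. The 52-week departures numbered 38, 180, 0, 16 and 5 by edgeR, and 91, 21, 1, 1 and 0 by DESeq2. With no filter they were 470 in keratinocytes, 516 in fibroblasts, 44 in macrophages and 13 in vascular cells. With thinned cells they were 60 in fibroblasts, 11 in macrophages, 2 in T or innate lymphoid cells and 2 in vascular cells. The cause of these shifts was not tested. Each age and treatment has 1 library, so no replicate numbers pair samples; the pairing by age was part of the edgeR fit over the 3 ages.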

Other observations

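Some transcripts of other cell types appeared in lineages that normally lack them, and these values were chosen after they were seen. Trdc, the constant region of the δ T-cell receptor chain, was found in 55 of 846 untreated fibroblasts (159 UMIs) and in 250 of 790 treated ones (2434 UMIs), and in 13 and 83 of them when cells were thinned to 500 UMIs. It was 29.3 and 413 CPM in 52-week fibroblasts, 56.5 and 227 at 8 weeks, and 40.4 and 215 at 26 weeks, and it rose over the 3 ages (2.77 ± 0.36 SE, adjusted p = 0.0224, edgeR). In T or innate lymphoid cells Trdc stood at 641 and 759 CPM. Cx3cr1, a chemokine receptor of Langerhans and myeloid cells, had 927 UMIs in 25 untreated 52-week keratinocytes, 365 of them in 1 cell, and 70 UMIs in 22 treated ones. In keratinocytes of the younger libraries it stood at 0.747 to 1.31 CPM.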
